A study of Homo sapiens with 12 samples.

Results

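A set of 5 genes that make, conjugate and carry bile acids was followed on 12 expression arrays of HepG2 cells, an established human liver carcinoma line. The genes were CYP7B1, BAAT, SLC10A1, SLCO1B1 and ABCC2, taken as every probe whose platform gene symbol is one of these names. Each of the 5 genes had 1 probe, so 5 of 27561 probes and 5 of 13881 measured genes are described. Cells grown in DMEM with fetal bovine serum were mock-treated as controls or given 1 of 3 hepatoprotective agents at 25 µM. The agents were glycyrrhizin (the sweet saponin of liquorice), silymarin (milk thistle flavonolignans) and ursodeoxycholic acid, itself a bile acid. Each of the 4 groups held 3 arrays of total RNA labelled with Cy5, and no group carried any other treatment that the labels name. Whether the 3 arrays stand for separate cultures is not in the labels. The p-values therefore reflect only array-to-array spread, possibly technical, and no batch or treatment time is given in the sources used here.

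Hepatocytes turn cholesterol into bile acids by a classic route that starts with CYP7A1 and an alternative route in which oxysterols are hydroxylated by CYP7B1. BAAT joins the finished acids to glycine or taurine. On the blood side of the cell SLC10A1 (NTCP) takes conjugated bile acids up with sodium and SLCO1B1 (OATP1B1) takes up organic anions without it, while on the canalicular side ABCC2 (MRP2) pumps out divalent and glucuronide conjugates, bilirubin's among them. HepG2 cells are known for low sodium-dependent bile acid uptake compared with primary hepatocytes. The comparisons ask whether each agent shifted the transcripts of this pathway, and whether the agents differed from each other.

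The values are the authors' normalized intensities, given here as log2 intensity. Array medians lay between 85.8 and 86.6 intensity units, and the lowest and highest intensities were 1.0 and 65221. They carried no detection calls, and a dim reading may therefore be background. With 3 arrays in each group, precision was limited by their number. The mean correlation of an array with the other 11, across probes, was 0.925 to 0.935 for 10 arrays, 0.909 for silymarin replicate 2 and 0.907 for ursodeoxycholic acid replicate 1. Of 10 listed hepatocyte markers 8 were measured, with mean log2 intensities from 5.17 (APOA2) to 8.89 (APOB) against a median of 6.7 over all genes. APOA2, FGB (6.2) and TF (6.4) lay below that median and the other measured hepatocyte markers above it. ALB and HNF4A were not among the named probes. The mean log2 intensities of markers of other cells ran from 5.29 (CD3E) to 9.92 (CD14) over 3 leukocyte genes and from 5.64 (KDR) to 9.63 (CDH5) over 4 endothelial genes. They ran from 6.03 (COL1A2) to 10.13 (COL1A1) over 4 fibroblast and stellate cell genes and from 5.23 (KRT19) to 7.59 (EPCAM) over 5 cholangiocyte genes. CD14, CDH5 and COL1A1 thus read brighter than every measured hepatocyte marker. A probe's brightness also depends on the probe, so these ranges place readings on the array and do not rank transcripts or cell types.

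None of the 5 genes passed the test in any of 7 comparisons. In limma with Benjamini-Hochberg adjustment over 13881 genes, their lowest adjusted p was 0.432, for CYP7B1 in glycyrrhizin against silymarin. In each comparison of an agent with control, 0 members passed and 2 had an unadjusted p under 0.05. Over all genes, 0% passed in each of these comparisons, and an unadjusted p under 0.05 was found for 5.37% of genes with glycyrrhizin, 4.89% with silymarin and 5.29% with ursodeoxycholic acid. A moderated F-test over all 4 groups called 0 members and 0.0216% of genes. There BAAT (adjusted p = 0.504) and CYP7B1 (adjusted p = 0.68) lay at an unadjusted p of 0.00693 and 0.0324, as 6.71% of genes lay under 0.05. These 5 genes were proposed with earlier results of these arrays in view, so their low unadjusted p-values are a description.

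**Figure D1:**
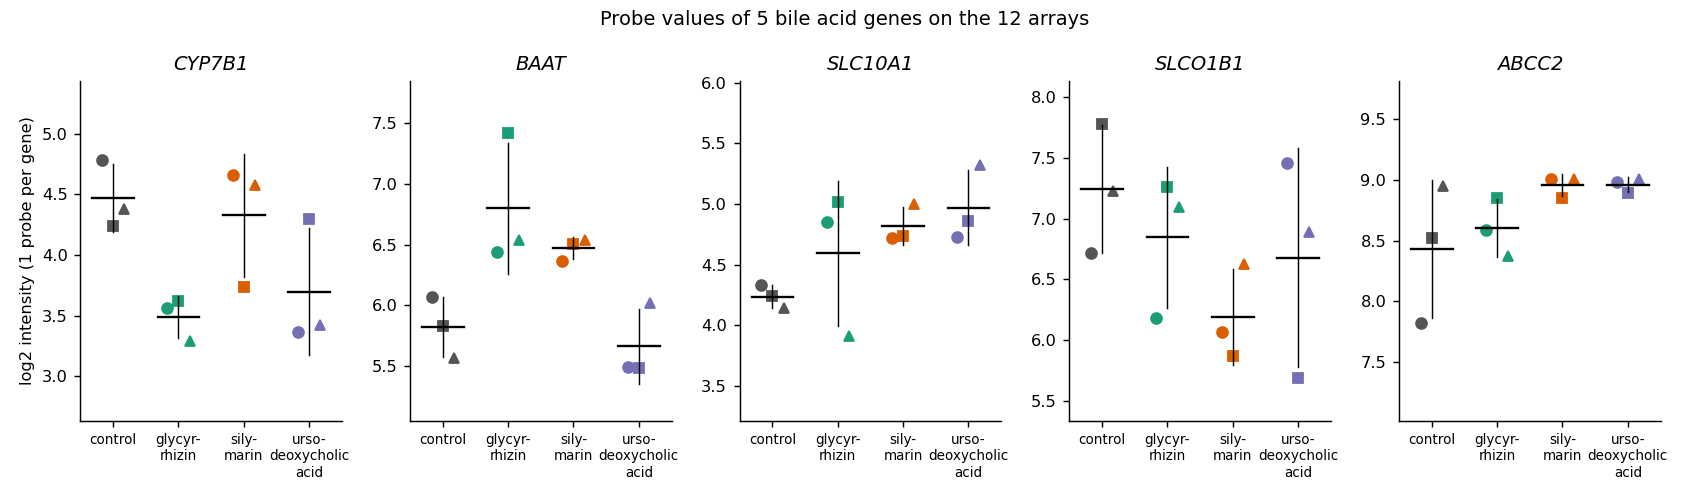
Log2 intensity of the probe of each gene (vertical axes) on the 12 arrays in the 4 groups; circles, squares and triangles are replicates 1, 2 and 3, horizontal bars the means and vertical lines 1 SD either way (n = 3). BAAT lies above all control arrays with glycyrrhizin and silymarin, CYP7B1 lies below them with glycyrrhizin, and the SLCO1B1 arrays with ursodeoxycholic acid spread from 5.69 to 7.46.

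CYP7B1, the oxysterol hydroxylase of the alternative route, was read by a dim probe, with 2.5% of genes dimmer on average. Its log2 intensities were 4.78, 4.24 and 4.38 on control replicates 1 to 3. With glycyrrhizin they were 3.56, 3.62 and 3.29, all below the 3 control arrays. With ursodeoxycholic acid they were 3.37, 4.3 and 3.42, so that replicate 2 lay inside the control range and the other two below it. With silymarin they were 4.66, 3.74 and 4.58, overlapping the control arrays except for replicate 2. In linear units these probes read 18.9 to 27.4 in control and 9.8 to 12.3 with glycyrrhizin.

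The CYP7B1 group means ran from control, 4.47 ± 0.28 (SD, n = 3), through silymarin, 4.33 ± 0.51, and ursodeoxycholic acid, 3.7 ± 0.53, to glycyrrhizin, 3.49 ± 0.18. Neighbours in this order did not differ beyond their spread. Against control, CYP7B1 was 1.97-fold lower with glycyrrhizin (log2 difference −0.97, SE 0.33, adjusted p = 0.787) and 1.71-fold lower with ursodeoxycholic acid (−0.77, SE 0.33, adjusted p = 0.925), neither past the threshold. The glycyrrhizin arrays also lay below all silymarin arrays (−0.84, 95% interval −1.55 to −0.12). Silymarin differed from control by −0.14 (−0.86 to 0.58), which became 0.16 without silymarin replicate 2 and 0.02 without control replicate 1. The within-group SD of CYP7B1, 0.4, was small for so dim a probe, since the median was 0.67 over the dimmest of 4 equal groups of genes. When limma was allowed to tie the spread to brightness, the standard error for glycyrrhizin grew from 0.33 to 0.55 and the unadjusted p from 0.0124 to 0.0996. Adding 50 intensity units before the log shrank the difference to −0.24.

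The mean level of 5 cholangiocyte markers, which was not tested as a list, lay at 6.51 to 6.86 on the control arrays, 6.04 to 6.29 with glycyrrhizin, 5.69 to 6.32 with ursodeoxycholic acid and 6.47 to 6.63 with silymarin. Of these 5 markers 4 were lower with glycyrrhizin and 5 with ursodeoxycholic acid, with 0 past the threshold. Over all genes 52.5% and 52.3% were higher. The other marker lists moved too, also with 0 past the threshold. Of 8 hepatocyte markers 2 were higher and 6 lower with glycyrrhizin, and 5 higher and 3 lower with ursodeoxycholic acid. All 3 leukocyte markers were higher with both agents. Of 4 endothelial markers 3 and 2 were higher, and of 4 fibroblast and stellate cell markers 3 with each agent. The dimmest cholangiocyte markers were KRT19 and KRT7, at means of 5.23 and 5.48 against a median of 6.7 over all genes. Without detection calls such readings may be background. The part of the cholangiocyte markers in the CYP7B1 values was not tested. All arrays were of the HepG2 line, so these values are probe readings in that line and not counts of cholangiocytes.

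**Figure D2:**
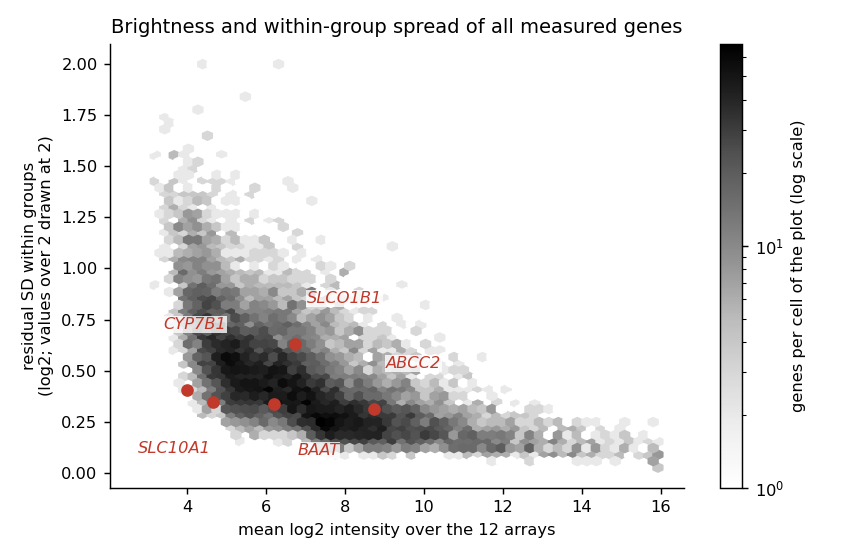
Residual SD within groups (vertical axis, log2 units, values over 2 drawn at 2) against mean log2 intensity over the 12 arrays (horizontal axis) for all 13881 genes, shaded by the number of genes, with the 5 bile acid genes as red points. CYP7B1 and SLC10A1 sit at the dim end with an SD below the 0.67 median of the dimmest of 4 equal groups of genes, and SLCO1B1 has the largest SD of the 5, 0.63.

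BAAT, the enzyme that conjugates bile acids to glycine or taurine, was measured higher with glycyrrhizin and silymarin and not with ursodeoxycholic acid. Its log2 intensities were 6.07, 5.83 and 5.57 in control. They were 6.44, 7.42 and 6.54 with glycyrrhizin, and 6.37, 6.51 and 6.54 with silymarin. Each of these 6 arrays lay above all 3 control arrays, and the silymarin arrays lay closest together. With ursodeoxycholic acid they were 5.49, 5.48 and 6.02, replicates 1 and 2 below the control range and replicate 3 inside it.

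The order of the BAAT group means was glycyrrhizin, 6.8 ± 0.54 (SD, n = 3), silymarin, 6.47 ± 0.09, control, 5.82 ± 0.25, and ursodeoxycholic acid, 5.66 ± 0.31. The first pair and the last pair each overlapped, while the arrays of silymarin and control did not. BAAT was 1.97-fold higher than control with glycyrrhizin (log2 difference 0.98, SE 0.29, adjusted p = 0.72) and 1.57-fold higher with silymarin (0.65, SE 0.29, adjusted p = 0.977), and neither passed. The first value rested in part on glycyrrhizin replicate 2, without which it was 0.67, as against 1.16 without replicate 1. When limma tied the spread to brightness, the unadjusted p grew from 0.00601 to 0.0103 with glycyrrhizin and from 0.0441 to 0.0684 with silymarin. Ursodeoxycholic acid differed from control by −0.16 (95% interval −0.79 to 0.47).

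Between agents, BAAT was 2.19-fold higher with glycyrrhizin than with ursodeoxycholic acid (log2 difference 1.13, SE 0.29, unadjusted p = 0.00233), and 0.158% of genes had a smaller p in that comparison, yet the adjusted p was 0.882. It was 1.75-fold higher with silymarin than with ursodeoxycholic acid (0.81, SE 0.29, adjusted p = 0.571). All 3 arrays of glycyrrhizin and of silymarin lay above those of ursodeoxycholic acid. Without ursodeoxycholic acid replicate 3 the adjusted p-values were 0.206 and 0.346, the lowest over the alternatives tried.

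SLC10A1, the sodium-dependent uptake carrier, was dim in all groups, with 11.2% of genes dimmer on average. Its control arrays read 4.33, 4.24 and 4.14 in log2 intensity, or 17.6 to 20.2 intensity units. With ursodeoxycholic acid they read 4.73, 4.86 and 5.32 and with silymarin 4.72, 4.74 and 5.0, so all 6 lay above the control arrays. With glycyrrhizin 2 of 3 arrays lay above control, at 4.85 and 5.02, and replicate 3 lay below it at 3.91. The gene was thus higher than every control array on 8 of 9 treated arrays. These come from different agents set against the same control arrays, and the share of all genes with such a count is not given here.

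The SLC10A1 means ran upward from control, 4.24 ± 0.1 (SD, n = 3), through glycyrrhizin, 4.6 ± 0.59, and silymarin, 4.82 ± 0.16, to ursodeoxycholic acid, 4.97 ± 0.31, and neighbouring groups overlapped. SLC10A1 was 1.67-fold higher than control with ursodeoxycholic acid (log2 difference 0.74, 95% interval 0.09 to 1.38, adjusted p = 0.925). When limma tied the spread to brightness, the standard error of this difference grew from 0.29 to 0.43 and the unadjusted p from 0.0289 to 0.107. The differences were 0.58 (−0.06 to 1.22) with silymarin and 0.36 (−0.29 to 1) with glycyrrhizin, the latter 0.15 without glycyrrhizin replicate 2 and 0.7 without replicate 3. With the 3 agents averaged, SLC10A1 differed from control by 0.56 (SE 0.24), with an exact two-sided permutation p of 0.0227 and an adjusted limma p of 0.998. Its unadjusted limma p there was 0.0397, or 0.132 with the spread tied to brightness. The exact permutation p of the other members was 0.0773 (ABCC2), 0.109 (CYP7B1), 0.15 (SLCO1B1) and 0.2 (BAAT). The share of all genes with so low an exact p is not given here. That comparison called 0 of the 5 members and 0% of genes, with 2 members and 4.26% of genes at an unadjusted p under 0.05. With 3 arrays against 3 the smallest exact p is 0.1, which no single agent can go below. Adding 50 intensity units before the log left 0.25 of the ursodeoxycholic acid difference. The 3 agents showed no separation in SLC10A1, with differences of −0.38 to −0.16 and intervals that all held 0. The glycyrrhizin and silymarin order turned to 0.12 without glycyrrhizin replicate 3.

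SLCO1B1, the sodium-independent uptake carrier and a transporter of statins and bilirubin conjugates, lay near the middle of the array, with 50.7% of genes dimmer. Its control arrays read 6.72, 7.78 and 7.23. With silymarin they read 6.07, 5.87 and 6.63, all below control, although the highest, replicate 3, came close to control replicate 1. With glycyrrhizin they read 6.18, 7.26 and 7.1 and with ursodeoxycholic acid 7.46, 5.69 and 6.89. Both groups straddled the lower end of the control range.

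The SLCO1B1 means ran from control, 7.25 ± 0.53 (SD, n = 3), through glycyrrhizin, 6.85 ± 0.59, and ursodeoxycholic acid, 6.68 ± 0.9, to silymarin, 6.19 ± 0.4, with neighbours overlapping. SLCO1B1 was 2.08-fold lower with silymarin (log2 difference −1.06, SE 0.47, 95% interval −2.1 to −0.02, adjusted p = 0.977). That difference ranged from −1.32 without control replicate 1 to −0.79 without control replicate 2. When limma tied the spread to brightness, its unadjusted p went from 0.0473 to 0.0323, with an adjusted p of 0.816. Glycyrrhizin and ursodeoxycholic acid differed from control by −0.4 (−1.44 to 0.64) and −0.57 (−1.61 to 0.47), which were −0.07 without glycyrrhizin replicate 1 and −0.08 without ursodeoxycholic acid replicate 2. At the other end they were −0.66 without control replicate 1 and −0.96 without ursodeoxycholic acid replicate 1. The spread within groups was wide, since 75.8% of genes had a smaller residual SD than the 0.63 of SLCO1B1. Near-identical members of the SLCO1B family exist, and the probe's sequence was not used here, so its specificity was not checked.

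ABCC2, the canalicular export pump, was read by a probe that lay above 80.4% of genes on average. Its control arrays read 7.82, 8.52 and 8.95 in log2 intensity, a span wider than that of any treated group. With silymarin they read 9.01, 8.85 and 9.01, with ursodeoxycholic acid 8.98, 8.89 and 9.01, and with glycyrrhizin 8.59, 8.85 and 8.37. The arrays of silymarin and ursodeoxycholic acid, at 462.5 to 515.7 intensity units, thus lay in one narrow band, with control replicate 3 inside it at 495.5.

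The mean of ABCC2 was 8.96 ± 0.09 (SD, n = 3) with silymarin, 8.96 ± 0.06 with ursodeoxycholic acid, 8.61 ± 0.24 with glycyrrhizin and 8.43 ± 0.57 in control. Silymarin and ursodeoxycholic acid each differed from control by 0.53 (SE 0.27), with adjusted p-values of 0.977 and 0.925. Control replicate 1 carried much of both. Without it they were 0.22 and 0.23, and the glycyrrhizin difference turned from 0.17 to −0.13. Without control replicate 3 the differences were 0.79, 0.79 and 0.44 in the same order. When limma tied the spread to brightness, the unadjusted p went from 0.0802 to 0.0481 with silymarin (adjusted p = 0.862). With ursodeoxycholic acid it went from 0.0784 to 0.0468 (adjusted p = 0.86). Between silymarin and ursodeoxycholic acid the difference was 0 (95% interval −0.6 to 0.6), an interval that still holds a 1.51-fold change either way. All glycyrrhizin arrays lay below those of silymarin and of ursodeoxycholic acid, replicate 2 by less than 1 intensity unit from the lowest silymarin array (−0.35 in both, −0.95 to 0.25 and −0.96 to 0.25).

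**Figure D3:**
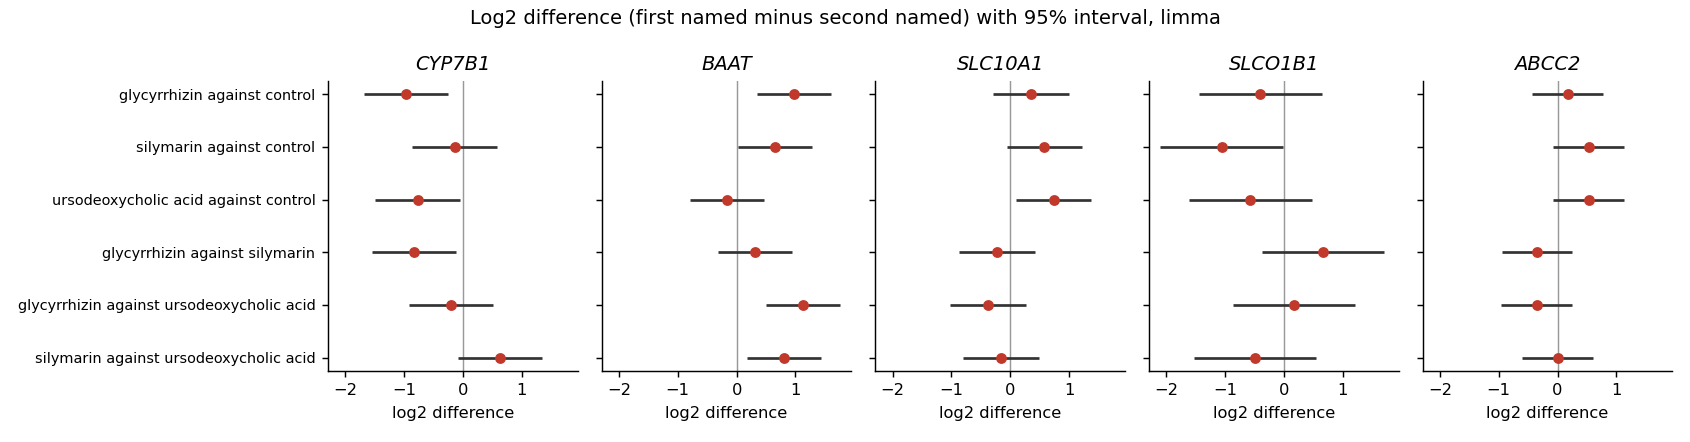
Log2 difference (horizontal axis, first-named group minus second-named group) of each gene in 6 comparisons, with 95% intervals from limma as horizontal lines. The intervals of BAAT leave 0 in 4 comparisons, including 0.5 to 1.76 for glycyrrhizin against ursodeoxycholic acid, and those of ABCC2 hold 0 in all 6.

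Counted per comparison, the arrays of the 2 groups did not overlap for 2 of the 5 genes in glycyrrhizin against control (12.7% of all genes), 3 with silymarin (10.8%) and 1 with ursodeoxycholic acid (9.5%). In glycyrrhizin against silymarin they did not overlap for 2 genes (18.2% of all genes), in glycyrrhizin against ursodeoxycholic acid for 2 (11.6%) and in silymarin against ursodeoxycholic acid for 1 (14.7%). At an unadjusted p under 0.05, 1 member was found in each of these 3 pairs of agents, beside 9.31%, 4.68% and 8.04% of genes. The adjusted test called 0 members in each pair, and 0.0504%, 0% and 0.0288% of genes. The 5 genes did not share a direction. Against control 3 were higher and 2 lower with glycyrrhizin and with silymarin, and 2 were higher and 3 lower with ursodeoxycholic acid. These comparisons share the 3 control arrays, so likeness between them is not counted as a result.

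Of 53 listed genes of bile acid synthesis, conjugation, transport and control, 42 were measured, the 5 above included, and 0 passed in any comparison. Against control 25 were higher and 17 lower with glycyrrhizin (median log2 difference 0.07), 22 and 20 with silymarin (0.04), and 17 and 25 with ursodeoxycholic acid (−0.11). The median over all genes was 0.02 in each case. By role, the 6 conjugation and detoxification genes, BAAT among them, had a median of 0.7 with glycyrrhizin, 5 of them higher. The 5 ran from CYP3A4, 0.05 (SE 0.65), to SULT2A1, 1.2 (SE 0.59), the latter dim at a mean of 4.24. ACOT8 was lower, −0.79 (SE 0.39), with all 3 glycyrrhizin arrays below control. The median of the 6 genes was 0.23 with silymarin, with 4 higher, and −0.18 with ursodeoxycholic acid, with 2 higher. Over all genes 52.5% were higher with glycyrrhizin and 52.3% with each of the other agents. The 13 synthesis genes had medians of 0.12, 0.07 and −0.09 in the same order, and the 5 uptake genes −0.13, −0.11 and −0.07. The 8 efflux genes gave −0.16, 0.08 and −0.06, and the 10 sensing and control genes 0.01, −0.02 and 0.05.

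Next to BAAT in the conjugation list stood SLC27A5, the bile acid CoA ligase that precedes BAAT in conjugation, and UGT2B4, which glucuronidates bile acids. The SLC27A5 mean was 5.52 ± 0.75 (SD, n = 3) in control against 6.49 ± 0.23 with glycyrrhizin (log2 difference 0.97, SE 0.37, adjusted p = 0.83), with all 3 glycyrrhizin arrays above the control arrays. Without control replicate 1, at 4.66, the difference was 0.54. The SLC27A5 differences were 0.06 with silymarin and 0.55 with ursodeoxycholic acid, or −0.37 and 0.12 without that array. UGT2B4 averaged 6.38 ± 0.14 in control, 7.09 ± 0.27 with silymarin (0.71, SE 0.23, adjusted p = 0.927), 6.8 ± 0.34 with glycyrrhizin and 6.04 ± 0.08 with ursodeoxycholic acid. It had the lowest F-test p of the 42 genes (unadjusted p = 0.00391, adjusted p = 0.438). Like BAAT it was higher with glycyrrhizin and silymarin than with ursodeoxycholic acid, by 0.76 and 1.05, again without passing. The list as a whole did not share this. Against ursodeoxycholic acid, 5 of its 6 genes were higher with glycyrrhizin (49.6% of all genes) and 3 with silymarin (50%), with medians of 0.33 and −0.22. SLC27A5, SULT2A1 and CYP3A4 were lower with silymarin than with ursodeoxycholic acid (−0.5, −0.65 and −0.45).

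Among efflux genes, the phospholipid floppase ABCB4 had a mean of 7.22 ± 0.23 in control against 6.17 ± 0.91 with glycyrrhizin (log2 difference −1.04, SE 0.44, adjusted p = 0.861). Replicate 2 of glycyrrhizin, at 7.22, lay inside the control range, and without it the difference was −1.57. ABCC4, a basolateral exporter, ranged from 5.18 ± 0.95 with glycyrrhizin to 6.5 ± 0.51 with silymarin and had an SE of 0.63. Among sensing genes, KLB, the co-receptor through which FGF19 lowers bile acid synthesis, averaged 5.27 ± 0.1 in control and 4.36 ± 0.64 with silymarin (−0.91, SE 0.28, adjusted p = 0.927). The difference was −0.54 without silymarin replicate 3, which read 3.62. GPBAR1, the membrane bile acid receptor TGR5, averaged 6.02 ± 0.68 in control and 7.01 ± 0.23 with ursodeoxycholic acid (1, SE 0.31, adjusted p = 0.821). Without control replicate 3, at 5.24, the difference was 0.61. All 3 arrays with ursodeoxycholic acid lay above control in GPBAR1, while those of glycyrrhizin and silymarin overlapped it.

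Of the other synthesis enzymes, CYP8B1, the sterol 12-hydroxylase, differed from control by 0.21, −0.38 and 0.34 with glycyrrhizin, silymarin and ursodeoxycholic acid, and CH25H, the cholesterol 25-hydroxylase, by 0.09, −0.42 and −0.02. Among uptake genes the ileal carrier SLC10A2 differed by −0.21, −0.81 and 0.17, and SLCO1A2 by 0.3, 0.3 and −0.31. When arrays were left out in turn, SLC10A2 ranged from −1.26 to −0.4 with silymarin and took either sign with the other agents, as did SLCO1A2 with ursodeoxycholic acid. Another 4 genes central to the pathway are given here, chosen after their values were seen, and none passed. CYP7A1, the rate-limiting enzyme of the classic route, differed by 0.18, 0.64 and −0.09, with all 3 silymarin arrays above the control arrays. ABCB11, the bile salt export pump, differed by −0.37, −0.22 and 0.03. The bile acid receptor NR1H4 (FXR) differed by −0.14, −0.32 and −0.61, and its target NR0B2 (SHP) by 0.08, 0.17 and 0.25. The 95% interval of the NR0B2 difference with ursodeoxycholic acid was −0.21 to 0.7.

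**Figure D4:**
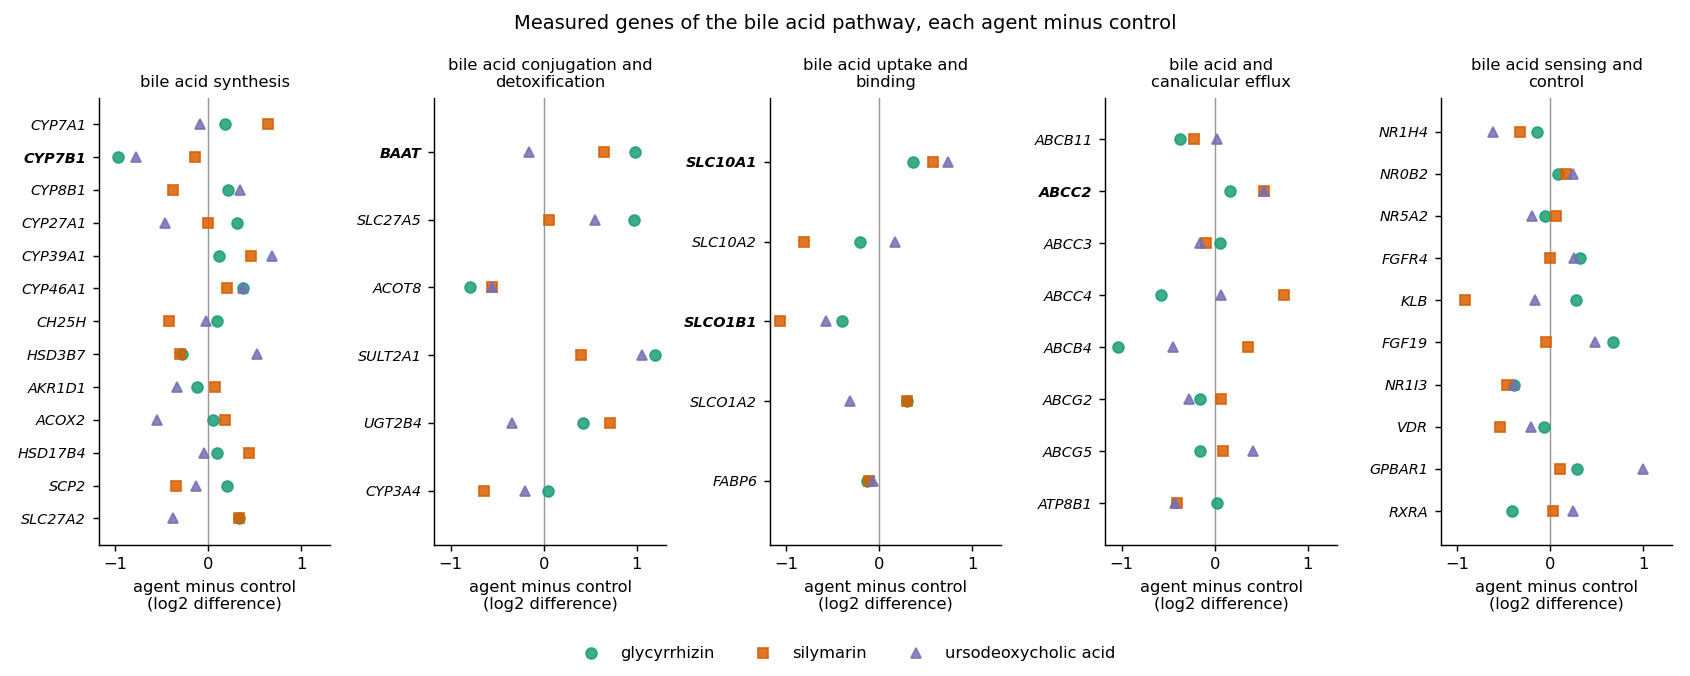
Log2 difference of each agent minus control (horizontal axes) for the 42 measured pathway genes in 5 lists; circles are glycyrrhizin, squares silymarin and triangles ursodeoxycholic acid, and the 5 genes followed here are in bold. Points of most genes fall within 1 log2 unit of 0, with SULT2A1 at 1.2 (glycyrrhizin) and SLCO1B1 at −1.06 (silymarin) among those outside, and none passed the test.

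The genes whose values over the 12 arrays were most like each member were read off the table of 13880 other genes by Pearson correlation. They were ARFGEF1, SNX30 and OAZ2 for CYP7B1 (r = 0.84 each), and EIF3D, GYS1 and PHF7 for BAAT (0.9, 0.85 and 0.83). They were TEX26, TMEM175 and RBPJL for SLC10A1 (0.88, 0.84 and 0.82), ZW10, ZNF560 and UNC13D for SLCO1B1 (0.93, 0.87 and 0.86), and PIK3CD, STEAP3 and TMEM47 for ABCC2 (0.94, 0.93 and 0.91). None is on the pathway lists. The points share the 12 arrays and their normalization, and each r was chosen as the highest of 13880, so these values are a description with no test.

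**Figure D5:**
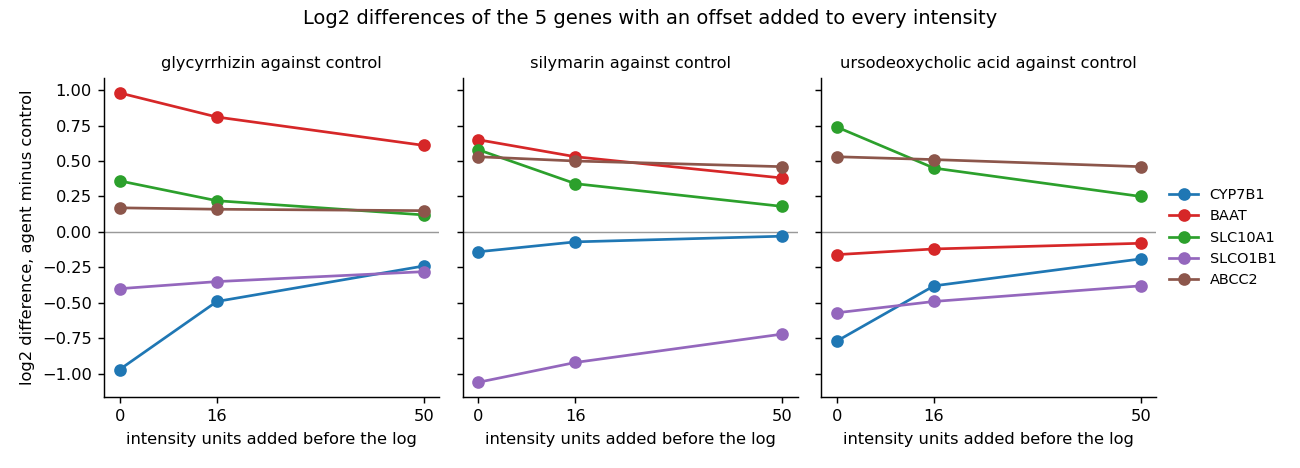
Log2 difference of each agent minus control (vertical axis) for the 5 genes with 0, 16 or 50 intensity units added to every value before the log (horizontal axis). The differences of CYP7B1 and SLC10A1 shrink most, from −0.97 to −0.24 for CYP7B1 with glycyrrhizin and from 0.74 to 0.25 for SLC10A1 with ursodeoxycholic acid, while that of ABCC2 with ursodeoxycholic acid goes from 0.53 to 0.46.

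Adding a constant to every intensity before the log damps differences between dim readings more than those between bright ones. With 16 units added, CYP7B1 differed from control by −0.49 with glycyrrhizin and −0.38 with ursodeoxycholic acid, and SLC10A1 by 0.45 with ursodeoxycholic acid. BAAT with glycyrrhizin stood at 0.81 with 16 units and 0.61 with 50, and SLCO1B1 with silymarin at −0.92 and −0.72. The signs of all 5 genes against control were kept with both offsets.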

How the data were processed

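The authors deposited linear intensities, 1 for each probe on each array. Limma is named in the submitters' processing notes. The scanner and the steps of background correction and normalization were not given in the sources used here. At a given rank the 12 arrays differed by a median coefficient of variation of 0.37%, so the deposited intensities followed nearly 1 distribution.

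The 27561 probes were log2-transformed and fitted together with limma 3.58.1 in R 4.3.3 (lmFit, eBayes; 1 mean per group, 8 residual and 2.8 prior degrees of freedom). Of them 15650 had 1 platform symbol, 0 several and 11911 none; 2355 older symbols were updated through RefSeq's gene table (GRCh38.p14). A gene was its brightest probe, giving 13881 genes, over which two-sided p-values were adjusted (Benjamini-Hochberg, threshold 0.05). Simulated arrays with 200 of 13881 genes changed in glycyrrhizin against control gave back 21.2% of 2-fold and 62.8% of 4-fold changes, with 4.08% of calls false. These rates hold for that assumed number of changed genes, and no rate is given for genes as dim as CYP7B1 and SLC10A1.

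The members, gene lists and tests were chosen with earlier results of these data known. Named pathway genes were, per list, the 2 with the smallest F-test p, and per member the 3 most correlated genes. Alternatives covered a replicate block, normalization, dim probes, joining of probes, the spread, groups fitted, offsets and each array left out.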

Additional observations from a re-analysis of the deposited data

Results flagged for a closer look

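UGT2B4 and KLB lay on opposite sides of all control arrays with different agents. They were picked out by this pattern in these same values, and its share over all genes is not given here. Agent and control arrays did not overlap for 12.7% of all genes with glycyrrhizin, 10.8% with silymarin and 9.5% with ursodeoxycholic acid. The agents share the 3 control arrays. UGT2B4 was above all control arrays with silymarin (log2 difference 0.71, 95% interval 0.21 to 1.21). It was below them with ursodeoxycholic acid (−0.34, −0.84 to 0.16), though this interval spanned no difference. The difference between these agents was 1.05 (95% interval 0.55 to 1.55), which did not pass in limma (adjusted p = 0.297). KLB was above all control arrays with glycyrrhizin (0.28, −0.34 to 0.9), where the interval also spanned no difference. It was below them with silymarin (−0.91, −1.53 to −0.29). The difference between glycyrrhizin and silymarin was 1.19 (0.57 to 1.81, adjusted p = 0.196 in limma). Without silymarin replicate 3 the last 2 KLB differences were −0.54 and 0.82.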

How the results depend on the processing

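No call of the 5 genes changed. Their 35 differences and 5 F-test p-values were recomputed under up to 24 alternatives, and 0 of the 926 values passed. Of 814 recomputed differences 781 kept their sign, 9 reversed and 24 had a value of 0 in one of the fits. The lowest adjusted p was 0.199 (CYP7B1, glycyrrhizin against silymarin, array weights, limma). The reversed differences were CYP7B1 with silymarin against control (0.07 with array weights, and −0.31 to 0.16 when leaving out arrays, 0.02 without control replicate 1), ABCC2 with glycyrrhizin against control (−0.13 to 0.44), SLC10A1 for glycyrrhizin against silymarin (−0.43 to 0.12) and for silymarin against ursodeoxycholic acid (−0.28 to 0.02), and, for glycyrrhizin against ursodeoxycholic acid, CYP7B1 (−0.37 to 0.1) and SLCO1B1 (−0.32 to 0.56, and −0.04 without glycyrrhizin replicate 2). Leaving out arrays for the named pathway genes was added after seeing the data. Leaving out the dimmer 50% of probes dropped CYP7B1, BAAT and SLC10A1, which then had no value.

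Counts of genes past the threshold over all genes moved in these comparisons. Glycyrrhizin against control, 0 genes, gave 1 with median centring and with the mean of probes, 3 without dim probes and with array weights, 17 with a variance trend, and 2 and 7 with 16 and 50 added. Silymarin against control, 0, gave 2 without dim probes, 4 with the trend, 1 with array weights, and 1 and 2 with 16 and 50 added. Ursodeoxycholic acid against control, 0, gave 2 without dim probes, 6 with the trend, 6 with 50 added, and 0 to 2 when leaving out arrays (2 without ursodeoxycholic acid replicate 3). The mean of the agents, 0, gave 3 with the trend and with 50 added. Glycyrrhizin against silymarin, 7, gave 68 without dim probes, 202 with the trend, 20 with array weights, 0 with only the groups compared, 18 and 139 with 16 and 50 added, and 0 to 5 when leaving out arrays (0 without each glycyrrhizin array and silymarin replicates 1 and 2). Silymarin against ursodeoxycholic acid, 4, gave 0 with each probe on its own and with only the groups compared, 16 with the trend, 10 with 50 added, and 0 to 28 when leaving out arrays (28 without ursodeoxycholic acid replicate 3). The test over the 4 groups, 3, gave 8 without dim probes, 5 with each probe on its own, 44 with the trend, 8 with array weights, 7 and 27 with 16 and 50 added, and 0 without any 1 array. A fit on the probes that stand for genes alone, chosen after seeing the data, gave 1 for glycyrrhizin against control and 7 for silymarin against ursodeoxycholic acid. The cause was not tested.

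Deviations of same-numbered arrays correlated at −0.19 to 0.15 over 18 pairs (median 0.02). Those of different numbers correlated at −0.23 to 0.27 (median −0.01). The labels do not say whether same-numbered arrays were prepared together, and these correlations cannot settle it. With the replicate number as a block, glycyrrhizin against silymarin, silymarin against ursodeoxycholic acid and the test over the 4 groups each gave 0, and the calls of the 5 genes did not change. CYP7B1 and SLC10A1 were the dimmest of the 5 genes, and the part of low signal in their values was not tested.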
